A study of Mus musculus with 24 samples.

Results

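Zinc finger protein genes with a symbol of Zfp and a number were described as a class in mouse liver after MitoCDNB, a compound that carries chlorodinitrobenzene into mitochondria. The table listed 24421 gene symbols, of which 337 had this form. A symbol was taken into the class when it had a raw count of 10 or more in at least 12 of the 24 libraries, which 281 did. Zfp36, which encodes the mRNA decay factor tristetraprolin, and Zfp503 were left out by name, so 279 genes formed the class. The members were therefore selected on their measured counts, and the fact that they are detected is not a result. C57BL/6 mice had been given either the vehicle, 0.1% ethanol, or MitoCDNB at 5 mg/kg, and the medial liver lobe was taken 1 h or 4 h later. Each agent was taken at both times, which gives 4 groups, and each group had 6 libraries of polyadenylated RNA from 6 mice according to the labels. No untreated animals and no time before the injection were used here.

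Most proteins of this class carry tandem C2H2 zinc fingers, small folds held by a zinc ion that each read a short stretch of DNA. Many also carry a KRAB domain, which recruits the corepressor TRIM28 and with it histone methylation by SETDB1. KRAB zinc finger proteins are best known for silencing retrotransposons and for guarding imprinted genes, and their genes lie in tandem clusters. Other members have roles outside transcription, among them a sensor of collided ribosomes, Zfp598, and a ribosome assembly factor, Zfp622. MitoCDNB is known to lower mitochondrial glutathione and to inhibit the mitochondrial thioredoxin system.

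The libraries held 25132737 to 37231025 counts, and the 279 members took 0.178% of them on average. The members were weakly expressed, with a median of 3.34 CPM (a gene's counts scaled to the library's total) over all libraries and a range of 0.328 to 73.7, against a median of 9.34 for the 13833 genes that entered the test. On the first principal component of the 500 most variable genes, the 6 MitoCDNB libraries of 1 h lay between 19.98 and 22.75 and all other libraries between -17.4 and 7.96. At 4 h, vehicle replicate 1 lay at 12.3 on the second component, with the other 5 vehicle libraries between -16.7 and -1.77, and MitoCDNB replicate 2 lay at -3.80 on the first, with the other 5 of its group between -17.4 and -11.4. The neuronal transcript Snap25 had 12 to 39 counts in replicates 4 to 6 of both 1 h groups and none in the other 18 libraries. Camk2a, also a neuronal transcript, had 29 to 55 counts in the same replicates and 0 to 7 in the other 18. Results at 1 h are therefore also given within replicates 1 to 3 and 4 to 6. The part of these transcripts in the results was not tested. The 10 hepatocyte markers summed to between 49150 and 91937 CPM in every library. These sums were scaled to the library's total alone, without the TMM scaling of the other CPM.

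On average the class was lower in MitoCDNB than in vehicle livers at 1 h, and lay close to its vehicle level at 4 h. Each member's log2 CPM was centred on its mean over the 24 libraries and the centred values were averaged over the 279 members, which gives 1 value per library. That value was -0.01 ± 0.067 (SD, n = 6) in vehicle livers at 1 h and -0.22 ± 0.064 (SD, n = 6) in MitoCDNB livers at 1 h. The 6 MitoCDNB libraries ran from -0.30 to -0.12 with a median of -0.21, and the 6 vehicle libraries from -0.13 to 0.06 with a median of 0.01. Vehicle replicate 1 lay just below MitoCDNB replicate 5, the only overlap between the groups. At 4 h the value was 0.10 ± 0.055 (SD, n = 6) with vehicle and 0.13 ± 0.048 (SD, n = 6) with MitoCDNB, and the ranges of 0.03 to 0.20 and 0.06 to 0.18 lay on top of each other. In liver tissue taken whole, fewer cells of a type and less RNA per cell cannot be told apart.

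**Figure D1:**
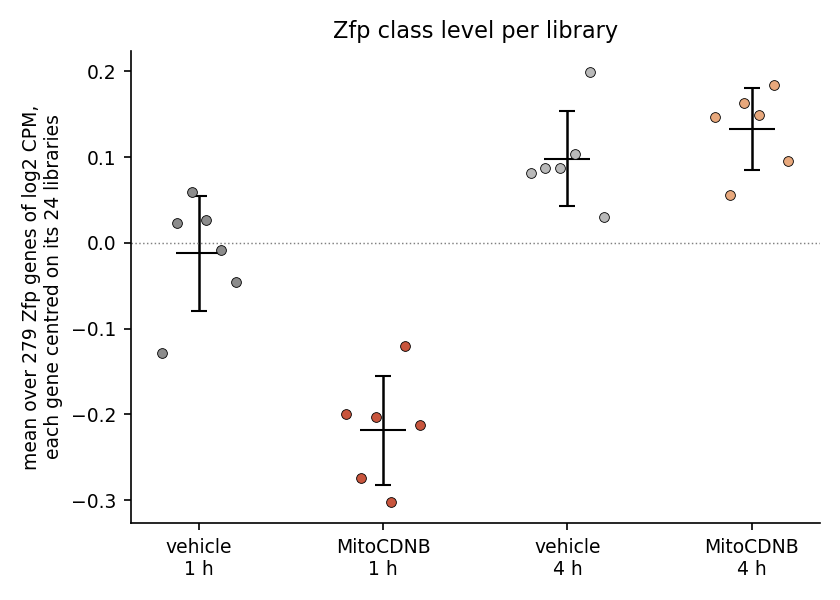
Mean centred log2 CPM of the 279 Zfp genes in each library (vertical axis, log2 units), by group (horizontal axis, 6 libraries each); the points are libraries and the bars the mean ± SD. The MitoCDNB libraries of 1 h sit between -0.30 and -0.12, and the other 18 libraries between -0.13 and 0.20.

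At 1 h, 45 of the 279 members (16.1%) were lower with MitoCDNB at an adjusted p under 0.05 and 3 (1.08%) were higher, in edgeR's quasi-likelihood test with Benjamini-Hochberg adjustment over all 13833 genes. Among all tested genes 3.87% were called lower and 2.7% higher. The median log2 fold change of the members was -0.20, with 211 of 279 (75.6%) below 0, while over all tested genes the median was 0.00 and 49.3% lay below 0. An unadjusted p under 0.05 was reached by 106 members. In 24 members all 6 MitoCDNB libraries lay below all 6 vehicle libraries, against 2.54% of all tested genes, and in 3 members all lay above, against 2.19%. Of those 24, 22 were among the 45 called lower. The difference was spread over many members by small amounts: the 45 had a median log2 fold change of -0.66 and a range of -1.33 to -0.30, and 3 of them fell at least 2-fold. In 44 of the 45, all 6 MitoCDNB libraries lay below the vehicle mean, and in 1 member 5 did.

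From 1 CPM upward, the shares called lower were larger than those of all genes at the same level of expression. Of the members with a mean of 3 to 10 CPM, 22 of 103 (21.4%) were called lower, against 6.08% of all tested genes at that level. At 10 CPM and above it was 7 of 45 (15.6%) against 3.39%, and at 1 to 3 CPM 14 of 83 (16.9%) against 3.84%. Under 1 CPM, where counts were fewest, 2 of 48 members (4.17%) were called, against 1.87%, and both, Zfp296 and Zfp791, lost their call in most omissions of 1 library. The median log2 fold change went the other way, from -0.35 in the lowest of these levels to -0.06 in the highest. Within replicates 1 to 3 alone, 14 of 271 tested members were called lower and 3 higher, where 1.46% and 1.30% of all tested genes were called, with a median log2 fold change of -0.17. Within replicates 4 to 6 it was 11 and 2 of 275, where 1.39% and 2.29% of all tested genes were called, with a median of -0.19. The calls on the higher side were at or below the share of all genes in both sets. Of the 45, which had been chosen on these same libraries, 13 and 10 were called.

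**Figure D2:**
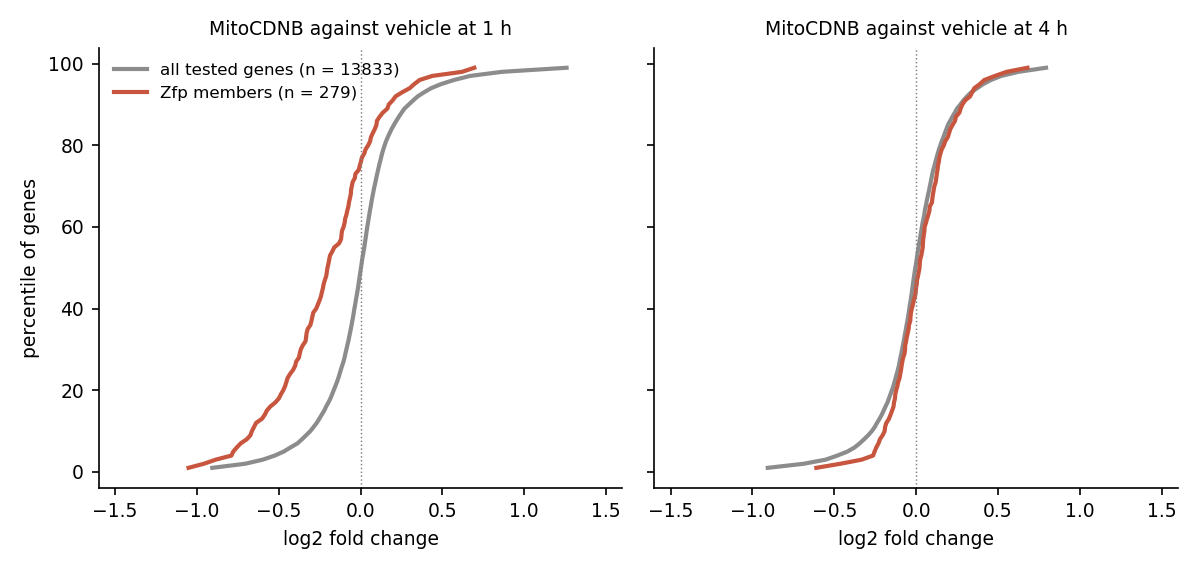
Percentiles (vertical axis) of the log2 fold change of MitoCDNB against vehicle (horizontal axis, log2 units) at 1 h (left) and 4 h (right), for the 279 Zfp genes (red) and all 13833 tested genes (grey). At 1 h the Zfp curve lies to the left, with medians of -0.20 and 0.00; at 4 h the curves lie close together, with a Zfp median of 0.02.

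Zfp174 encodes a protein with a SCAN domain, a module for pairing with other SCAN proteins, and 3 C2H2 fingers (chr16:3847268-3858880, mm10). Its level in vehicle livers at 1 h was 1.22 CPM at the lowest, 1.47 at the median and 1.88 at the highest, and in MitoCDNB livers 0.389, 0.648 and 0.899. No MitoCDNB library reached the lowest vehicle library, and the log2 fold change was -1.24 ± 0.176 (SE, edgeR adjusted p = 4.73e-05). At 4 h the vehicle libraries ran from 1.53 to 2.37 CPM and the MitoCDNB libraries from 1.70 to 2.48, so the groups overlapped. Its exons share 261 bases with those of Zfp597 on the other strand, and since no strand setting is stated, reads from these bases cannot be told apart. Zfp597 was also called lower, from 5.80 to 3.94 CPM.

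Zfp790 (chr7:29816114-29831005) encodes a KRAB protein with 12 fingers and had the smallest p of the class at 1 h. Vehicle livers held 5.41 CPM at the lowest, 5.78 at the median and 7.36 at the highest, and MitoCDNB livers 2.41, 3.07 and 4.03. All MitoCDNB libraries lay below all vehicle libraries, with a log2 fold change of -0.96 ± 0.124 (SE, edgeR adjusted p = 1.29e-05). At 4 h the means were 5.87 ± 0.68 with vehicle and 5.61 ± 0.772 with MitoCDNB (SD, n = 6), within each other's spread. Zfp219 (chr14:52006077-52020733), a cofactor of Sox9 in cartilage with 9 fingers, was one of the better expressed of those that fell. It had 13.7 to 18.2 CPM in vehicle livers and 7.36 to 11.4 in MitoCDNB livers, with medians of 15.6 and 8.75. Its exons share 441 bases with Arhgef40 and Tmem253 on the other strand. The groups did not overlap (log2 fold change -0.79 ± 0.117 SE, edgeR adjusted p = 7.39e-05), and at 4 h they did, at 12.9 to 19.01 and 16.2 to 20.8 CPM.

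Zfp553 (chr7:127233061-127238179, 12 fingers) fell from 4.09 ± 0.386 to 2.25 ± 0.485 CPM (SD, n = 6), and its highest MitoCDNB library, 2.90, stayed under its lowest vehicle library, 3.62 (log2 fold change -0.86, edgeR adjusted p = 1.87e-04). Zfp46 (chr4:136284683-136293942, 12 fingers) behaved alike, with vehicle libraries from 3.65 to 5.25 CPM and MitoCDNB libraries from 1.79 to 3.13 (log2 fold change -0.87 ± 0.147 SE, adjusted p = 3.81e-04). Zfp60 (chr7:27731389-27753702), a KRAB protein with 19 fingers, ran from 3.68 to 5.54 and from 1.82 to 3.43 CPM, again without overlap (log2 fold change -0.75, edgeR adjusted p = 7.07e-04). Its fingers are among the more numerous of the genes named here. Zfp820 (chr17:21816885-21845772), another KRAB protein, did not overlap either, at 0.964 to 1.55 and 0.566 to 0.929 CPM. Zfp526 fell by 0.77 on the log2 scale with an overlap, since its lowest vehicle library, 1.52 CPM, lay below 4 MitoCDNB libraries, the highest of which had 2.15 (edgeR adjusted p = 0.00759).

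**Figure D3:**
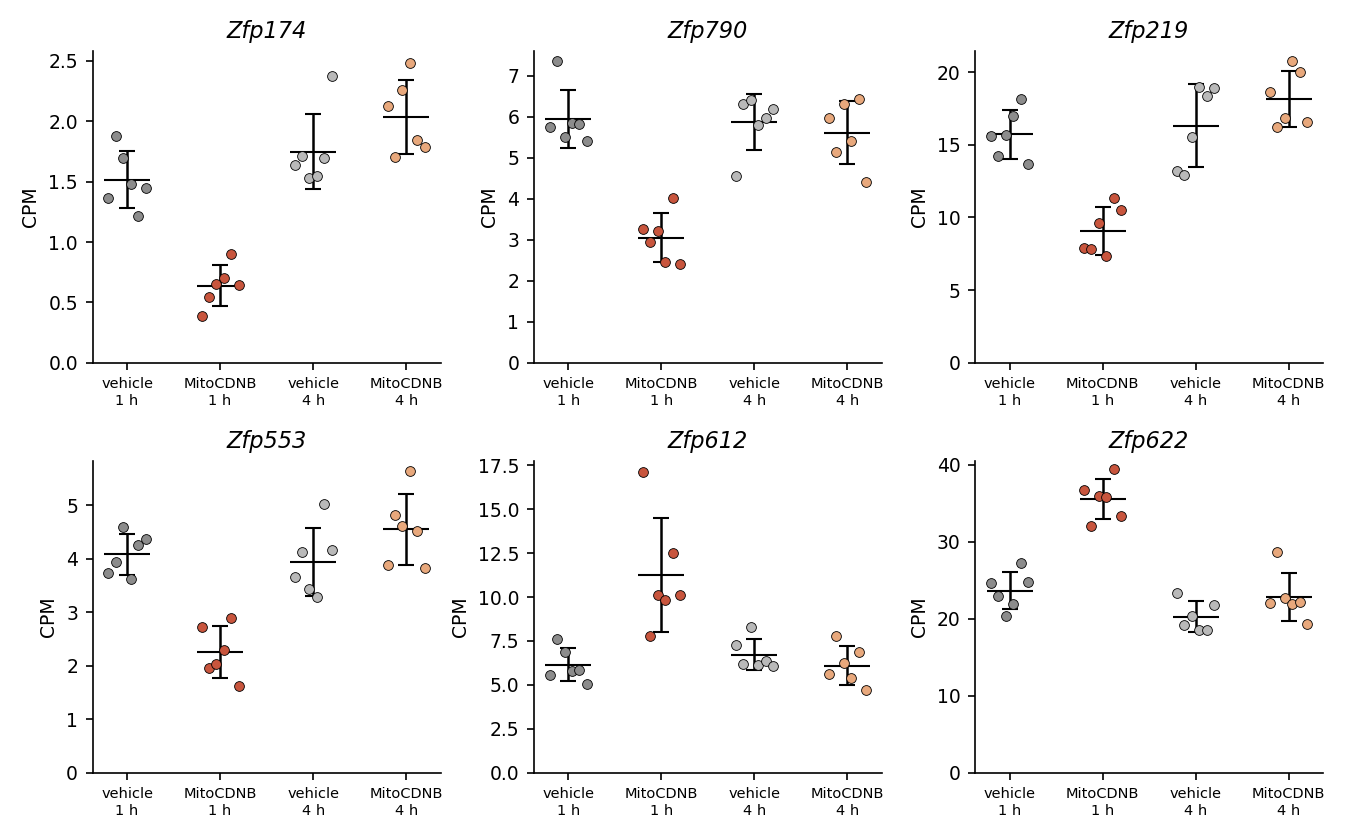
CPM (vertical axes, from 0) of 6 Zfp genes in each library by group (horizontal axes, 6 libraries each); points are libraries and bars the mean ± SD. Zfp174, Zfp790, Zfp219 and Zfp553 are low in all 6 MitoCDNB libraries of 1 h, Zfp612 and Zfp622 are high in them, and at 4 h the vehicle and MitoCDNB points overlap in each panel.

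The largest fitted decrease belonged to a gene with few reads. Zfp296 (chr7:19577287-19580656), studied in embryonic stem cells, had 3 to 24 counts per library, and its means were 0.490 ± 0.227 CPM with vehicle and 0.196 ± 0.0793 with MitoCDNB at 1 h (SD, n = 6). The groups overlapped, since vehicle replicate 4 had 0.172 CPM and the highest MitoCDNB library 0.325, and the call (log2 fold change -1.33, edgeR adjusted p = 0.0393) was lost when any of 8 of the 12 libraries was left out, with adjusted p up to 0.104. It also had no MitoCDNB library of 1 h at 10 counts, so it entered the class through its other groups. Zfp9 (log2 fold change -1.14, adjusted p = 0.0343) and Zfp791 (-0.89, adjusted p = 0.0435) each lost their call in 9 of 12 omissions, with edgeR adjusted p up to 0.0825 and 0.108. Zfp7, a KRAB protein with 16 fingers, fell by 0.95 on the log2 scale (adjusted p = 0.00803) and stayed called in every omission.

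The bases before the start sites of some of these genes are given because these genes moved in the same samples: 4 that fell and, for contrast, 1 that rose. They were picked after their values and matches were seen, from windows that hold little or no annotated exon. RefSeq (GRCm38.p6) start site windows of 300 bases, 250 before to 50 after the start, were matched by symbol for 234 members, and for 39 of the 45 called lower. The 289 member windows held a median of 15 CpG dinucleotides, the 51 windows of the members called lower also 15, and all 32851 windows 7. Below are the 250 bases before the start, 5′ to 3′ on the strand of the gene, with matches on either strand to CCAAT, to the GC box GGGCGG, to the ETS motif CCGGAAGT or to the NRF1 motif GCGCANGCG in capitals.
Zfp174, chr16:3846973-3847222, plus strand: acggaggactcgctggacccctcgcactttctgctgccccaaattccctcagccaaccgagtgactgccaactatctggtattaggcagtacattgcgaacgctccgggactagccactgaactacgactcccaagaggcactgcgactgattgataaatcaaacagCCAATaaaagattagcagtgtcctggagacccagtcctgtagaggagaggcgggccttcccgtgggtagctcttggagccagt
Zfp790, chr7:29815822-29816071, plus strand: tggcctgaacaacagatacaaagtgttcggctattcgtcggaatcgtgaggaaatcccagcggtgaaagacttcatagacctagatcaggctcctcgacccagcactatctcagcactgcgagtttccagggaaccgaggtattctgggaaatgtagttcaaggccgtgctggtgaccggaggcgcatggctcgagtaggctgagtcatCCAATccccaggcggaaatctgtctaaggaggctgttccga
Zfp526, chr7:25221175-25221424, plus strand: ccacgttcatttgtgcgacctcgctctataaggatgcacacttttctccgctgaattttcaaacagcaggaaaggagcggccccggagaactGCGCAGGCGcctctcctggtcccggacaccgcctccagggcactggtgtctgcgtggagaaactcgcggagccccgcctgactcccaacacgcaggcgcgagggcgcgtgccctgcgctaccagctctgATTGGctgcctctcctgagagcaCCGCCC
Zfp60, chr7:27731159-27731408, plus strand: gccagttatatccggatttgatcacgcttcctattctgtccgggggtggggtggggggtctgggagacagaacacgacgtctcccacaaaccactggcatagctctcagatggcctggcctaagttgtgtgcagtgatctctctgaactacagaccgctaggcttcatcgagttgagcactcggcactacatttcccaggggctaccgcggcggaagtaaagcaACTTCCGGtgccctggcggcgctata
Zfp622, chr15:25984116-25984365, plus strand: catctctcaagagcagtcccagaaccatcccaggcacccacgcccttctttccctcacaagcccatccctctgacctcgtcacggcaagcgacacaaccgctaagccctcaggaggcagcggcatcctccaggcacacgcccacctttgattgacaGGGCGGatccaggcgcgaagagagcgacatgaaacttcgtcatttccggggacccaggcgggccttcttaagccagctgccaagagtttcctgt
Zfp174 and Zfp790 each held 1 CCAAT match, 83 and 41 bases before the start, and Zfp526 held an NRF1 match at 158, a CCAAT match at 29, a GC box at 6 and a second CCAAT match that begins 2 bases before the start and runs past it. The window of Zfp60 held an ETS match at 26 bases and that of Zfp622, a gene that rose, a GC box at 94. Other motifs counted below are not marked in these sequences. Among them, a match to the AP-1 motif TGANTCA lies just before the CCAAT match of Zfp790. The letters TGACG occur on the other strand in the sequence of Zfp622.

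All windows, as used here, were not limited to tested genes, while the members had been selected for detection and their windows held more CpG. In the full windows of 300 bases, the ETS motif was found in 11.4% of member windows and 3.89% of all windows, and in 5.88% of those of the members called lower. ETS factors, YY1 and NRF1 are known for binding near the start sites of widely expressed genes. The YY1 motif AANATGGCG was found in 7.61% of member windows, 9.80% of those of members called lower and 2.38% of all. In the same order, members, members called lower and all, the NRF1 shares were 12.1%, 11.8% and 6.25%, and for CCAAT 46.4%, 47.1% and 37.4%. The GC box was found in 47.1%, 41.2% and 35.7%, and TGACG, the core of the cyclic AMP response element, in 33.9%, 39.2% and 20.8%. That element is the site of the CREB family. The full element TGACGTCA, which holds TGACG, was found in 4.15%, 1.96% and 1.79%. The AP-1 motif TGANTCA went the other way, with 3.81% of member windows, 3.92% of those of members called lower and 7.81% of all, as did the forkhead motif GTAAACA with 1.04%, 0 and 3.65%. The E-box CACGTG was found in 7.27%, 11.8% and 7.15%. The shares of the members called lower rest on 51 windows. Among these, 3 had an ETS match, 5 a YY1 match, 1 the full element TGACGTCA and 2 an AP-1 match. A match describes the letters of the window and does not show that a factor binds there.

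Members called lower at 1 h lay on many chromosomes. Chromosome 7 held 74 members, of which 17 were called lower and none higher, and 62 lay below 0. Runs of members with gaps of at most 500 kb were taken as clusters. The run from Zfp553 to Zfp646 on chromosome 7 held 10 members with 5 called lower, among them Zfp646, Zfp668, Zfp629 and Zfp768, and the run from Zfp84 to Zfp146 held 13 with 3 called. The run from Zfp160 to Zfp13 on chromosome 17 held 19 members with 4 called lower, and that from Zfp712 to Zfp273 on chromosome 13 held 17 with 2. No member of these 4 runs was called higher, but in the whole class only 3 of 279 were. The class share called lower was 16.1%. The run from Zfp871 to Zfp414 on chromosome 17 held 10 members with none called lower. That from Zfp787 to Zfp28 on chromosome 7 held 5 with none. On chromosome 9, none of the 16 members was called lower.

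Named after their values were seen, Zfp646 had 11.01 CPM in vehicle and 6.67 in MitoCDNB livers at 1 h, with log2 fold change -0.72, and Zfp397 had 11.4 and 7.12, with log2 fold change -0.68. They had the second and the fifth smallest p of the class, with edgeR adjusted p = 2.09e-05 and 5.97e-05. Exons of Zfp646 share bases with Zfp668 on the other strand, which was called lower too. Chosen in the same way, Zfp207, a spindle and splicing factor also called BuGZ, was the best expressed member called lower, at 38.8 and 30.8 CPM (log2 fold change -0.33). Zfp217, a transcriptional corepressor known as a breast cancer oncogene, went from 9.35 to 6.24 CPM. Zfp142, with 36 matches to the finger pattern the highest number in the class, went from 5.57 to 3.82 CPM. Zfp708 was called lower too, but 94.9% of the stretches of 50 bases in its transcripts also occur in other genes, so its value is uncertain. Of the 23 members that share over 20% of such stretches, it was the only one called. Exons of 34 members overlap those of another tested gene, and 10 of these members were called lower, against 35 of the 245 without an overlap.

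Zfp622, which encodes a factor for the assembly of the large ribosomal subunit, rose at 1 h (chr15:25984366-25998481). Vehicle livers held 20.3 to 27.2 CPM with a median of 23.8, and MitoCDNB livers 32.1 to 39.5 with a median of 35.9. The groups did not overlap, and the log2 fold change was 0.59 ± 0.0842 (SE, edgeR adjusted p = 5.07e-05). Zfp612 (chr8:110079746-110092741, 16 fingers) rose from 6.13 ± 0.939 to 11.2 ± 3.26 CPM (SD, n = 6), with the lowest MitoCDNB library, 7.76, just above the highest vehicle library, 7.63 (log2 fold change 0.87, adjusted p = 4.61e-04). Zfp750, known for its part in epidermal differentiation and without a match to the finger pattern, had 3.69 to 7.81 CPM with vehicle and 8.52 to 12.4 with MitoCDNB. Its call (adjusted p = 0.043, edgeR) was lost in 9 of 12 omissions of 1 library, with adjusted p up to 0.107. These 3 genes are the same 3 whose MitoCDNB libraries all lay above their vehicle libraries.

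The pattern of a C2H2 finger was found in the longest coding sequence of 271 of 277 members, with a median of 11 fingers. The members called lower were 4 of 56 with 0 to 5 fingers, 10 of 63 with 6 to 9, 13 of 99 with 10 to 14 and 18 of 59 with 15 or more fingers. The medians of the log2 fold change at 1 h were -0.08, -0.19, -0.25 and -0.27 in the same order. A KRAB pattern was found in 83 members, of which 13 were called lower and none higher, with a median of -0.26. Of the 194 without it, 32 were called lower and 3 higher, with a median of -0.16. A wider form of the pattern, added after the data were seen, matched 112 members with 15 called lower and a median of -0.24. Members without a match to the first pattern may therefore still carry a KRAB domain, and that group may be mixed. A SCAN pattern was found in 8 members, 2 of them called lower. Whether the changes differ between these classes was not tested.

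**Figure D4:**
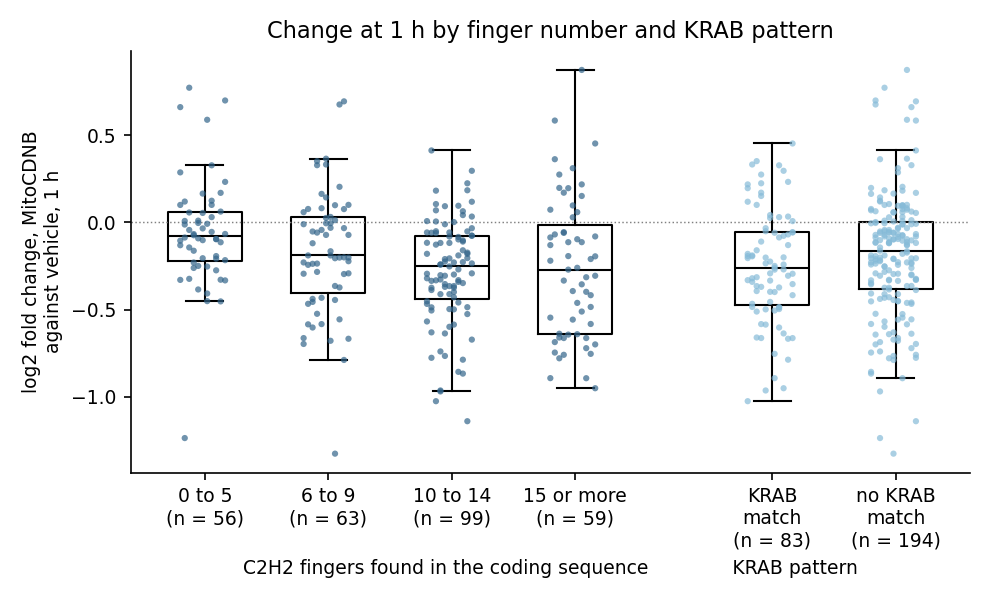
Log2 fold change of MitoCDNB against vehicle at 1 h (vertical axis, log2 units) for members grouped by the number of C2H2 fingers and by the KRAB pattern (horizontal axis, with n members); points are genes, boxes show the median and quartiles, and whiskers reach the farthest point within 1.5 times the box height. The medians are -0.08, -0.19, -0.25 and -0.27 from the fewest to the most fingers, and -0.26 and -0.16 with and without a KRAB match.

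At 4 h no member passed the test in edgeR in either direction, where 0.455% of all tested genes were called higher and 0.369% lower. An unadjusted p under 0.05 was reached by 30 members, DESeq2 called 4 members higher, where it called 1.41% of all tested genes higher, and limma-voom with quality weights 2, where it called 0.933%. Neither tool called any member lower. Without vehicle replicate 1, which lay apart, edgeR called 4 higher, where 1.62% of all tested genes were called higher, and without MitoCDNB replicate 2 or replicate 6 it called 1, where 0.395% and 0.553% were. These counts are near the shares of all genes and are not a result about the class. The median log2 fold change was 0.02, with 126 of 279 members (45.2%) below 0, against a median of -0.00 and 51.1% for all tested genes. Without vehicle replicate 6 the members' median was -0.00, with 143 below 0, so it has no firm sign. The 45 members called lower at 1 h had a median of 0.02 at 4 h, a range of -0.23 to 0.46, and 26 of them lay above 0.

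The members with the smallest p at 4 h were Zfp956, Zfp697 and Zfp672 on the higher side and Zfp945, Zfp639 and Zfp872 on the lower. Zfp956 had 1.75 to 3.27 CPM with vehicle and 2.86 to 4.36 with MitoCDNB, with medians of 2.26 and 3.31 (log2 fold change 0.54, edgeR adjusted p = 0.0614). Without vehicle replicate 1, its highest vehicle library, the adjusted p was 0.00848, the lowest over the 12 omissions, and the highest was 0.164. Zfp672 had 7.64 ± 1.34 and 10.03 ± 1.19 CPM (SD, n = 6, log2 fold change 0.39, edgeR adjusted p = 0.092) and passed in the same omission with 0.0135. Zfp697 was the only member whose MitoCDNB libraries, 1.09 to 2.01 CPM, all lay above its vehicle libraries, 0.756 to 1.04 (log2 fold change 0.66, edgeR adjusted p = 0.0653); 0.578% of all tested genes had that pattern. No member had the opposite one, seen in 0.318% of all tested genes. Zfp697 overlaps Hsd3b2 and Hsd3b3 on the other strand by 380 bases.

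On the lower side Zfp945, a KRAB protein with 18 fingers, had 4.23 to 5.47 CPM with vehicle and 3.10 to 4.32 with MitoCDNB (edgeR adjusted p = 0.118). Zfp639 had 6.80 to 9.12 and 5.97 to 7.33 CPM (adjusted p = 0.225). Zfp872 ran from 0.453 to 0.817 and from 0.0642 to 0.493 CPM (log2 fold change -0.85, edgeR adjusted p = 0.226), and at 1 h its log2 fold change was -1.03 (adjusted p = 0.0713).

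**Figure D5:**
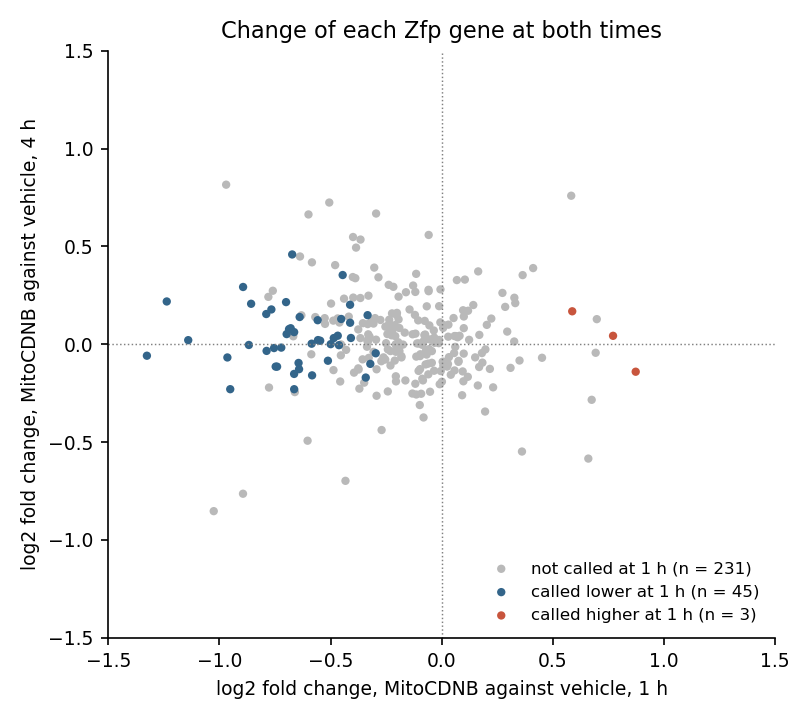
Log2 fold change of MitoCDNB against vehicle at 1 h (horizontal axis) and at 4 h (vertical axis), both in log2 units, for each of the 279 Zfp genes; blue points were called lower and red points higher at 1 h. The 45 blue points run from -1.33 to -0.30 along the horizontal axis and from -0.23 to 0.46 along the vertical.

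The comparison of the 4 h effect with the 1 h effect, an interaction term in the same fit, called 28 members higher and 3 lower, where 2.38% and 1.69% of all tested genes were called. The median over the members was 0.21. It shares libraries with both treatment comparisons, so its calls are not separate evidence; 23 of the 45 members lower at 1 h were among the 28. Zfp366, a transcription factor of dendritic cells, had the largest difference, 1.79 on the log2 scale (edgeR adjusted p = 0.0123): at 1 h it went from 0.715 ± 0.171 to 0.360 ± 0.11 CPM and at 4 h from 0.504 ± 0.262 to 0.908 ± 0.264 (SD, n = 6), although neither effect was called alone. Zfp174 (1.46, adjusted p = 5.12e-04), Zfp697 (1.26, adjusted p = 0.00508), Zfp39 (1.13, adjusted p = 0.00926) and Zfp553 (1.06, adjusted p = 0.0013) followed. The 3 with a lower effect at 4 h than at 1 h were Zfp612 (-1.01, adjusted p = 0.00577), Zfp945 (-0.54, adjusted p = 0.0404) and Zfp622 (-0.42, adjusted p = 0.0442).

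Between the times, fewer members differed with vehicle than with MitoCDNB. At 4 h against 1 h, 21 of the 279 were higher and 1 (0.358%) lower with vehicle. Among all tested genes 2.99% and 2.46% were called, so the members' share called higher was the larger. The median of the members was 0.09, against -0.00 over all tested genes, and 95 members lay below 0. The count of 22 calls changed when single libraries were left out. It was 11 without vehicle replicate 1 or replicate 6 of 1 h and 13 without replicate 5 of 1 h. Without replicate 5 of 4 h it was 12, and without replicate 1 of 4 h 14. The share of all tested genes called higher fell too, to 2.20%, 1.77%, 1.96%, 2.34% and 2.75% in the same order. Zfp40, a KRAB gene on chromosome 17, had 0.373 to 1.07 CPM at 1 h and 1.19 to 1.67 at 4 h without overlap (log2 fold change 0.95, edgeR adjusted p = 0.00945). Zfp937 (0.93, adjusted p = 0.013) and Zfp763 (0.74, adjusted p = 0.0135) stayed called in each omission of 1 library. Zfp13 (0.92, adjusted p = 0.0488) lost its call in 11 of 12 omissions, and Zfp11 (0.73, adjusted p = 0.0341) in 7. Of the 50-base stretches of Zfp937, 29.4% occur in other genes. Zfp276, the 1 that was lower, went from 30.2 ± 5.44 to 21.9 ± 3.51 CPM (SD, n = 6; adjusted p = 0.0406, lost in 8 of 12 omissions), and its exons overlap Fanca and Vps9d1. The sampling time and the time since injection are the same variable here. In the sample numbering, all libraries of 4 h also come before all those of 1 h. Time and the order of the libraries therefore cannot be told apart in either comparison between the times.

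With MitoCDNB, 117 members were higher at 4 h than at 1 h and 12 lower, where 15.1% and 13.4% of all tested genes were called, and the median was 0.36. Of the 45 members lower at 1 h, 40 were among the 117; the MitoCDNB libraries of 1 h enter both comparisons. Markers of cell types were also called in the same comparison. All 4 tested neutrophil markers were called lower at 4 h than at 1 h, with a median of -2.59. So were 4 of 8 lymphocyte, 5 of 14 endothelial, 3 of 8 cholangiocyte, 3 of 14 brain and 1 of 12 Kupffer cell markers. That compares with the 13.4% of all tested genes called lower. The brain list includes Snap25 and Camk2a, whose counts lie only or mainly in replicates 4 to 6 of the 1 h groups. In the other direction, 1 endothelial and 1 cholangiocyte marker were called higher. Of 10 hepatocyte markers 1 was called higher and 1 lower. Their part in the result was not tested. Zfp13 rose most, from 0.228 ± 0.0946 to 0.851 ± 0.221 CPM (SD, n = 6, log2 fold change 1.88, edgeR adjusted p = 1.65e-05), though it had no MitoCDNB library of 1 h at 10 counts. Zfp174 (1.66), Zfp697 (1.53), Zfp39 (1.52) and Zfp783 (1.46) came next, all called. Zfp783 is listed as a transcribed pseudogene that shares exon bases with Zfp956 on the same strand. Zfp395 went the other way, from 34.9 ± 11.4 to 17.8 ± 3.79 CPM (log2 fold change -0.97, adjusted p = 0.00402). Zfp618 (-0.97), Zfp612 (-0.88), Zfp750 (-0.67) and Zfp622 (-0.64) were the next lower, and Zfp618 and Zfp750 lost their calls in 2 and 5 of 12 omissions.

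Related families were read in the same fit. Of 21 tested Zfp symbols with a letter after the number, 5 were called lower at 1 h and none higher, with a median log2 fold change of -0.17, Zfp780b having the smallest p among them (3.55 ± 0.409 to 2.19 ± 0.462 CPM). Of 38 Zbtb genes, which pair fingers with a BTB domain, 8 were called lower and 4 higher. Zbtb10 rose from 4.11 ± 1.24 to 9.67 ± 1.27 CPM and Zbtb21 from 7.02 ± 1.33 to 12.9 ± 2.46, while Zbtb48, a telomere-binding protein, fell from 10.8 ± 1.38 to 7.22 ± 1.27 (SD, n = 6). Of 17 Zkscan and Zscan genes, 4 were called lower, among them Zscan29 and Zkscan3, and 1 higher. Of 15 Zc3h genes, whose CCCH fingers bind RNA, 2 were called lower (Zc3h8 and Zc3h3) with a median of -0.04. At 4 h none of these families had a called gene, apart from Zc3h11a, which went from 59.2 ± 7.24 to 48.0 ± 2.96 CPM (edgeR adjusted p = 0.0415). Of the 32 partners through which KRAB proteins act, such as Trim28, Setdb1 and the heterochromatin proteins, none was called at 1 h or at 4 h by edgeR, with 4 and 5 at an unadjusted p under 0.05 and medians of -0.04 and -0.03.

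Markers of liver cell types were read beside the class. At 1 h, none of 10 hepatocyte, 12 Kupffer cell or 12 stellate cell markers was called. Of the endothelial markers 1 of 14 was called higher, with a median log2 fold change of 0.08. Of the cholangiocyte markers 2 of 8 tested were called higher, and 6 had an unadjusted p under 0.05, with 7 above 0 and a median of 0.94. Of the lymphocyte markers 1 of 8 tested was called higher, with 7 above 0 and a median of 0.48. The cholangiocyte and lymphocyte medians are larger in size than the class median of -0.20, and the endothelial median is smaller. Of 14 tested brain markers 1 was called higher, with Mobp, Stmn2, Nefl, Nefm and Gap43 under 10 counts everywhere. Scaled to the library's total alone, without TMM, the 9 neutrophil markers in the table summed to 4.94 to 9.35 CPM with vehicle at 1 h. With MitoCDNB at 1 h they summed to 8.48 to 17.2 CPM on that scale, with Mpo and Elane under 10 counts everywhere. The 4 of them that were tested lay above 0 with a median of 1.16, 3 at an unadjusted p under 0.05, and none was called. Of 10 tested transcripts known to stay in the nucleus, 1 was called higher and 1 lower. At 4 h, 4 endothelial markers were called lower and 1 higher, 1 hepatocyte marker was called higher, and no marker of the other lists was called, although 11 of the 12 Kupffer cell markers lay below 0. The part of these differences in the results for the class was not tested.

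The best expressed members showed no change past the test with MitoCDNB. Zfp445, a KRAB guardian of imprinting, had 70.3 ± 10.96, 67.4 ± 20.6, 82.7 ± 19.6 and 74.4 ± 19.9 CPM in the vehicle and MitoCDNB groups of 1 h and then of 4 h (SD, n = 6). Zfp598, the collided ribosome sensor and ubiquitin ligase, had 58.3 ± 3.3, 63.6 ± 4.34, 71.4 ± 8.8 and 72.5 ± 10.7 CPM in the same order, and Zfp91, also a ubiquitin ligase, stayed between 63.0 and 68.0. Zfp706 had means of 57.6 to 62.9 CPM, Zfp106, an RNA-binding protein, 45.3 to 50.2, and Zfp871, a KRAB gene, 36.3 to 40.8. Per kilobase of exon, Zfp598 came first with 17.1 CPM, ahead of Zfp706 with 12.2 and Zfp445 with 9.95, while the class had genes down to 0.0498 CPM per kilobase (Zfp618).

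At the edge of the class, Zfp600 and Zfp296 had 10 counts or more in 12 libraries and Zfp202 in 13, and just outside it Zfp105, Zfp521 and Zfp454 had them in 11. At 1 h the log2 fold changes inside were -0.89, -1.33 and 0.69 and outside 0.09, -0.03 and -0.88. Zfp600 shares 81.2% of its 50-base stretches with other genes. All 279 members passed the filter of the fit, 243 had 10 counts or more in every library, and 3 (Zfp13, Zfp600 and Zfp296) had a group with no library at 10. Over the 243 alone, a choice added after the data were seen, 42 were called lower and 3 higher at 1 h. Of the symbols not taken, 56 were below the count threshold, 7 of them without a count. Of the genes left out by name, Zfp503 went from 1.77 ± 0.716 to 0.514 ± 0.0737 CPM at 1 h (SD, n = 6, log2 fold change -1.77, edgeR adjusted p = 2.68e-04), and Zfp36 from 64.6 ± 34.7 to 60.3 ± 12.1 (adjusted p = 0.954).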

How the data were processed

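The deposited table held raw read counts per gene symbol for 24 libraries of mouse liver, made by the authors with CASAVA 1.8.4, Trim Galore and HISAT2 on mm10, per the submitters' processing notes, which also list DESeq2. The kit was NEBNext Ultra, per the labels' protocols. How reads were counted (tool, annotation, strand, multimapping) was not given in the sources used here. Totals were 25132737 to 37231025 counts, and low counts limit the precision of the weakest members.

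Counts were fitted in edgeR 4.0.16 (R 4.3.3) with TMM scaling, filterByExpr (minimum count 10), all 4 groups and robust quasi-likelihood, and p-values were adjusted by Benjamini-Hochberg over 13833 genes. A call is an adjusted p under 0.05. CPM are TMM-scaled. Alternatives used DESeq2 1.42.0, limma 3.58.1, other scalings and filters, and omitted libraries.

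Coordinates, exon lengths and coding sequences came from GENCODE M21 (GRCm38). Finger (C-X2-4-C-X12-H-X3-5-H), KRAB and SCAN patterns were searched in translated longest coding sequences, since a RefSeq protein table was not used here. Figures used matplotlib 3.10.9.

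Genes were named by rule: called members with the largest changes in each direction, those of smallest p where few were called, the 6 best expressed, those nearest the count threshold, and called genes of related families. The members, the lists and this rule were chosen with earlier results of these data known. All libraries were used.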

Additional observations from a re-analysis of the deposited data

Results flagged for a closer look

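In groups of 6, a highest or lowest library was marked by its gap to the nearest library. The mark was given where that gap took more of the group's range than Dixon's 95% critical value allows. By chance this happens in about 1 of 20 groups. The 43 series examined were the class mean level, the named members and the 2 genes left out by name. Of their 172 groups 11 were marked, none of them for the class mean level. Vehicle replicate 1 at 4 h was low in Zfp790 (4.56 CPM) and Zfp820 (1.08 CPM). Vehicle replicate 2 at 4 h was low in Zfp39 (1.75 CPM) and Zfp13 (0.297 CPM) and high in Zfp600 (1.15 CPM), and vehicle replicate 6 was high in Zfp174 (2.37 CPM). MitoCDNB replicate 2 at 4 h was high in Zfp622 (28.6 CPM) and low in Zfp872 (0.0642 CPM), and MitoCDNB replicate 1 was high in Zfp7 (1.49 CPM). At 1 h, vehicle replicate 2 was high in Zfp790 (7.36 CPM) and vehicle replicate 4 in Zfp697 (1.07 CPM).

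The effect of MitoCDNB differed between 4 h and 1 h, by edgeR's interaction term, in 8 named members. It was higher at 4 h for Zfp366 (1.79 on the log2 scale, adjusted p = 0.0123), Zfp174 (1.46), Zfp697 (1.26), Zfp39 (1.13) and Zfp553 (1.06), and lower for Zfp612 (-1.01), Zfp945 (-0.54) and Zfp622 (-0.42). The calls of Zfp945 and Zfp622 were lost in 16 and 17 of 24 omissions of 1 library, with adjusted p up to 0.0765 and 0.0816.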

How the results depend on the processing

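At 1 h, 48 members were called in all, 17 within replicates 1 to 3, 13 within replicates 4 to 6 and 29 at an adjusted p under 0.01. Of these 29, 27 were lower, where 1.94% of all tested genes were called lower and 1.48% higher. With 1 library left out the count ran from 37 to 47 and the median from -0.22 to -0.17. In these omissions 3.04% to 3.63% of all tested genes were called lower and 2.07% to 2.38% higher. At 4 h, where edgeR called 0, DESeq2 called 4, limma-voom 2 and the fit without the 2 libraries that lay apart 4. On the higher side, these settings called 1.41%, 0.933% and 1.05% of all genes, close to the members' shares. Leaving out 1 library gave 0 to 4, with calls only without vehicle replicate 1, MitoCDNB replicate 2 or MitoCDNB replicate 6. Between vehicle times, 22 became 11 with those 2 groups alone, 11 with a term for 1 h replicates 4 to 6 and 5 at an adjusted p under 0.01. In these settings 1.61%, 1.97% and 0.918% of all tested genes were called higher, against 2.99% in the main fit. Omissions of 1 library between vehicle times gave 11 to 19 members. The count moved by over 1.5 times without vehicle replicates 1 and 5 of 4 h or 1, 5 and 6 of 1 h. Between MitoCDNB times the median moved from 0.36 to 0.30 with a mean CPM of at least 1. The interaction count of 31 became 13 (12 higher and 1 lower) at an adjusted p under 0.01. At that threshold 0.925% of all tested genes were called higher and 0.745% lower. Without vehicle replicate 6 the 4 h median of 0.02 turned to -0.00. Other scalings moved the median of all genes by less than 0.1. The main fit did not pair mice by replicate number. Correlations of same-numbered libraries ran from -0.07 to 0.21 at 1 h and from -0.21 to 0.27 at 4 h. At each time, 2 of 6 correlated best with their own number. These values cannot decide whether the mice were paired. With a replicate block, 41 members were called at 1 h (37 lower), 36 of the 45 among them. None was called at 4 h and 27 were in the comparison of the effects at both times (26 higher). With this block, 3.47% of all tested genes were called lower and 2.57% higher at 1 h. In the comparison of the effects it was 1.47% and 2.18%. With few reads, small changes in genes under 1 CPM were not detectable.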
